A study of Mus musculus with 12 samples.

Results

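Neurotrophic genes, 9 in all, were followed across 4 denervated fat depots of obese mice: the ligand genes Bdnf, Ntf3, Gdnf, Nrtn, Artn and Nrg4 and the receptor genes Ntrk2, Ntrk3 and Ret. They were taken by symbol, and all 9 were found once among the 47729 genes of each table. The RNA came from 12 libraries, 3 from each depot. The depots were interscapular brown adipose tissue (BAT), epididymal white adipose tissue (EWAT), inguinal white adipose tissue (IWAT) and retroperitoneal white adipose tissue (RWAT). Every library came from male wild type C57BL/6J mice, 6 to 10 weeks of age in the design text, that were fed a high-fat rodent diet and whose fat had been surgically denervated. All groups thus share the diet and the surgery, so neither was compared, and the comparisons are between depots of denervated fat. The labels did not say whether replicates came from separate animals, so every p-value rests on the spread among these libraries alone.

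Neurotrophins are secreted proteins that keep neurons alive and guide their branching. BDNF binds the receptor tyrosine kinase TrkB, the product of Ntrk2, and neurotrophin-3, the product of Ntf3, binds mainly TrkC, the product of Ntrk3. GDNF, neurturin (Nrtn) and artemin (Artn) signal through the tyrosine kinase RET together with a GFRA co-receptor that each ligand prefers. Neuregulin 4 (Nrg4) is an EGF-like factor that is released from fat cells and binds ERBB4, and it has been described as a brown-fat signal to sympathetic neurites and to liver. In fat these factors are studied because sympathetic fibres drive lipolysis and heat production.

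The sequences of the Ntrk2 ends are shown first because bulk read counts add up both receptor forms, while only one of them carries a kinase. The longer form of the GENCODE M21 annotation (GRCm38) codes for 821 amino acids and includes the tyrosine kinase domain. The shorter, truncated form codes for 476 amino acids and ends soon after the membrane-spanning part. The coding sequences are the same over their first 1394 bases and then split, as shown 5′ to 3′ with the last shared bases in lower case and the first 34 bases of each form's own coding sequence in capitals:

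Ntrk2 kinase form: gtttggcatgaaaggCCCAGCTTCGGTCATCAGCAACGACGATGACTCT

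Ntrk2 truncated form: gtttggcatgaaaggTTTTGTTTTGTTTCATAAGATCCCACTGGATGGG

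The 34 capital bases of the truncated form are its whole remaining coding sequence. The annotated transcripts are 8744 bases long for the kinase form and 6846 bases for the truncated form. The deposited mean length of the Ntrk2 transcripts, weighted by their estimated abundance, lay between 7039 bases in BAT 2 and 7130 bases in EWAT 1. It was nearer to the truncated form in every library and did not order the depots: it was 7066, 7039 and 7095 bases in BAT 1 to 3 and 7076, 7056 and 7112 bases in IWAT 1 to 3. The annotation release of the deposited lengths was not given in the sources used here, so no share of the 2 forms is given.

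Total expected counts ran from 12933516 (RWAT 3) to 21106554 (EWAT 3) per library. Counts are given as CPM, read counts relative to the library size after TMM scaling. In this unit 3 counts, the smallest number taken as detected, equal 0.134 CPM in IWAT 2 to 0.227 CPM in RWAT 3. BAT 2 and BAT 3 almost lacked Ucp1, the brown-fat uncoupling protein gene, with 0.253 and 1.70 CPM against 1489 CPM in BAT 1. The 14 adipocyte markers (led by Fabp4 and Lpl) summed to 1713 CPM in EWAT 1 and to 5455 CPM in BAT 2, the lowest value of each depot, against 41819 CPM in IWAT 1. Skeletal muscle transcripts summed to 694 CPM in RWAT 1 and 3687 CPM in RWAT 3 and to at most 208 CPM elsewhere. The 17 markers of sympathetic neurons, led by Npy and Slc18a2 (means of 6.85 and 4.35 CPM), summed to 11.9 to 34.9 CPM. Of these 17, 2 were at 0 in every library, and what the sums say about nerve supply was not tested. Bulk RNA cannot tell fewer cells of a type from less RNA per cell.

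Levels were compared between genes as TPM, which accounts for transcript length. Nrg4 was the most abundant of the 9 genes in every library, with a mean of 23.9 TPM over the 12 libraries (6.33 to 67.8 TPM). Ntrk2 followed with a mean of 15.8 TPM (0.730 to 53.5 TPM), Ret with 3.42 TPM (0.810 to 8.43 TPM) and Ntrk3 with 2.12 TPM (0.290 to 7.84 TPM). The remaining 5 ligands were near the limit of detection: Ntf3 averaged 0.529 TPM, Bdnf 0.188, Nrtn 0.184, Gdnf 0.178 and Artn 0.171 TPM. Summed, these 5 ligands reached 0.220 to 2.76 TPM in a library. Nrg4 exceeded Ntrk2 in 12 of 12 libraries and Ntrk2 exceeded Ret in 10 of 12, while the ranges of Bdnf, Nrtn, Gdnf and Artn overlapped throughout. The share of TPM taken by the 7SL RNA ran from 8.41% to 46.9% between libraries, so TPM was not used to compare libraries.

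**Figure D1:**
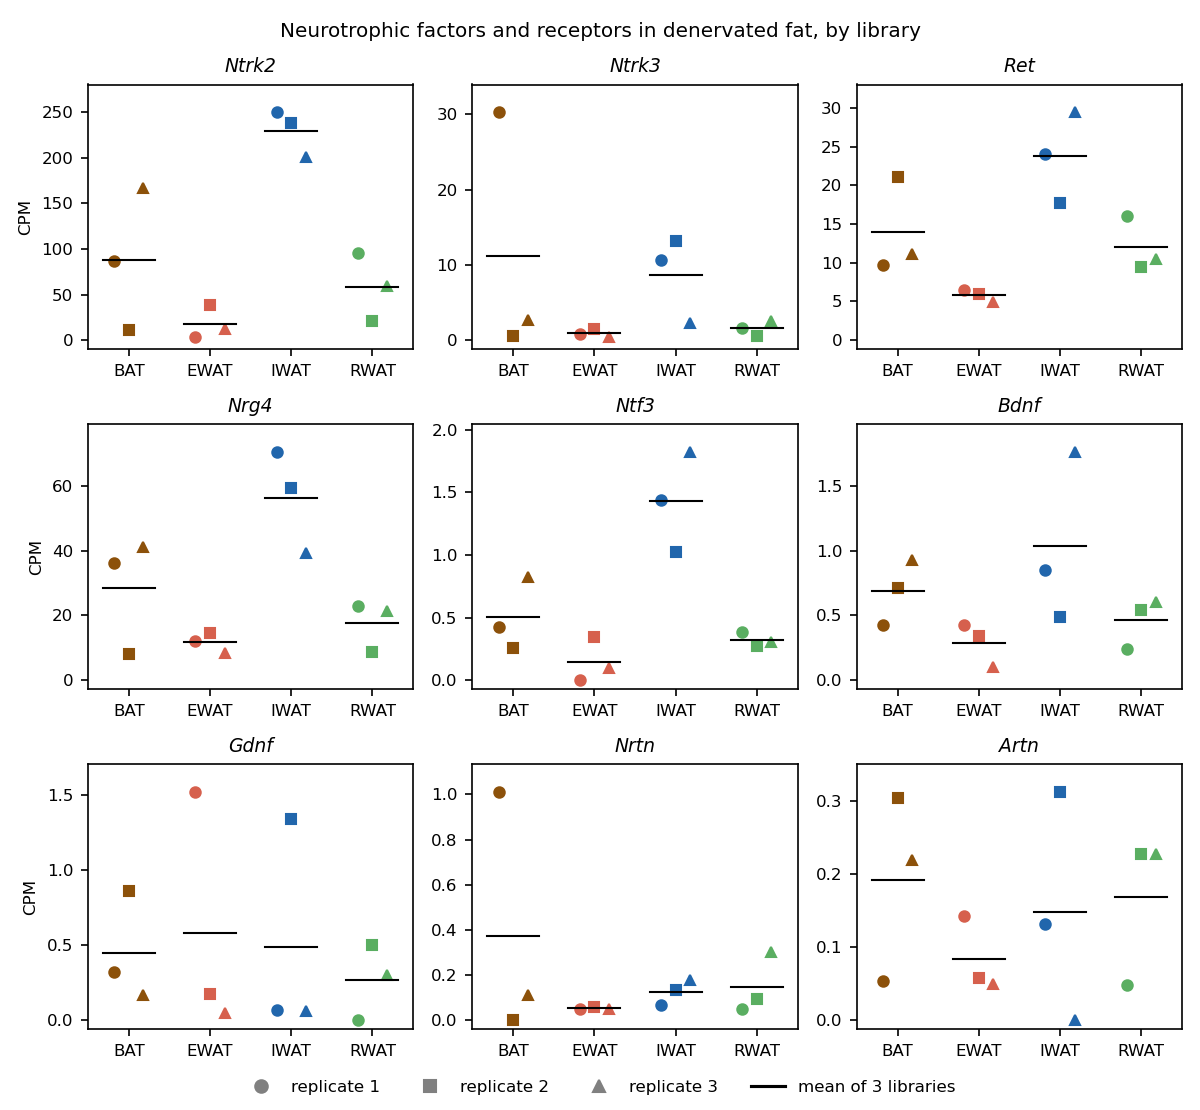
Each panel plots 1 gene as CPM (linear axis) in the 12 libraries by depot, with a symbol for each replicate number and a black line at the mean of 3 libraries. IWAT holds the highest mean for 5 of the 9 genes and EWAT the lowest mean for 8 of 9, all except Gdnf, while Gdnf, Nrtn and Artn rest on a few counts. How many of all genes share these orders was not counted.

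Of the 9 genes, 7 passed the filter on low counts and were tested, and Nrtn and Artn were not. At an adjusted p below 0.05 the test between IWAT and EWAT called 4 of the 7, all higher in IWAT: the receptor genes Ntrk2 and Ret and the ligand genes Nrg4 and Ntf3. In that comparison edgeR called 2082 of 18942 genes at an adjusted p below 0.05, which is 11% of the genes tested, and 1037 of them, 5.47%, were higher in IWAT. Ntf3 passed the filter mainly through the IWAT libraries, so the share of the 7 is not set against that background as a test. In the other 7 comparisons edgeR called 0 of the 7 genes. At that threshold the share of all genes was 1.14% over the 4 depots together, 0.0528% for BAT against the white depots, 0.143% for BAT against EWAT, 0.0264% for BAT against IWAT and 0.0211% for BAT against RWAT. It was 0.00528% for RWAT against EWAT and 0% for RWAT against IWAT, where edgeR called 0 genes.

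Looser criteria named more of the 7 genes and more of all genes. At an unadjusted p below 0.05 in edgeR there were 5 of the 7 over the 4 depots together, where 20.8% of all genes tested were below it, and 5 for BAT against EWAT, where 9.95% were. There were 3 for RWAT against IWAT (20.6% of all genes, 3909 in number) and 2 for BAT against IWAT (13.2%). There was 1 for BAT against the white depots (4.92%), 1 for BAT against RWAT (4.72%) and 1 for RWAT against EWAT (4.81%). DESeq2 called 5 of the 8 genes that it gave an adjusted p over the 4 depots, and 11.4% of all such genes. It called 2 of 7 for BAT against EWAT (2.31% of all genes) and 1 of 4 for RWAT against IWAT (6.69%, or 1109 genes). It called 0 for BAT against the white depots, IWAT and RWAT and for RWAT against EWAT, with 0.86%, 1.6%, 0.192% and 0.659% of genes.

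**Figure D2:**
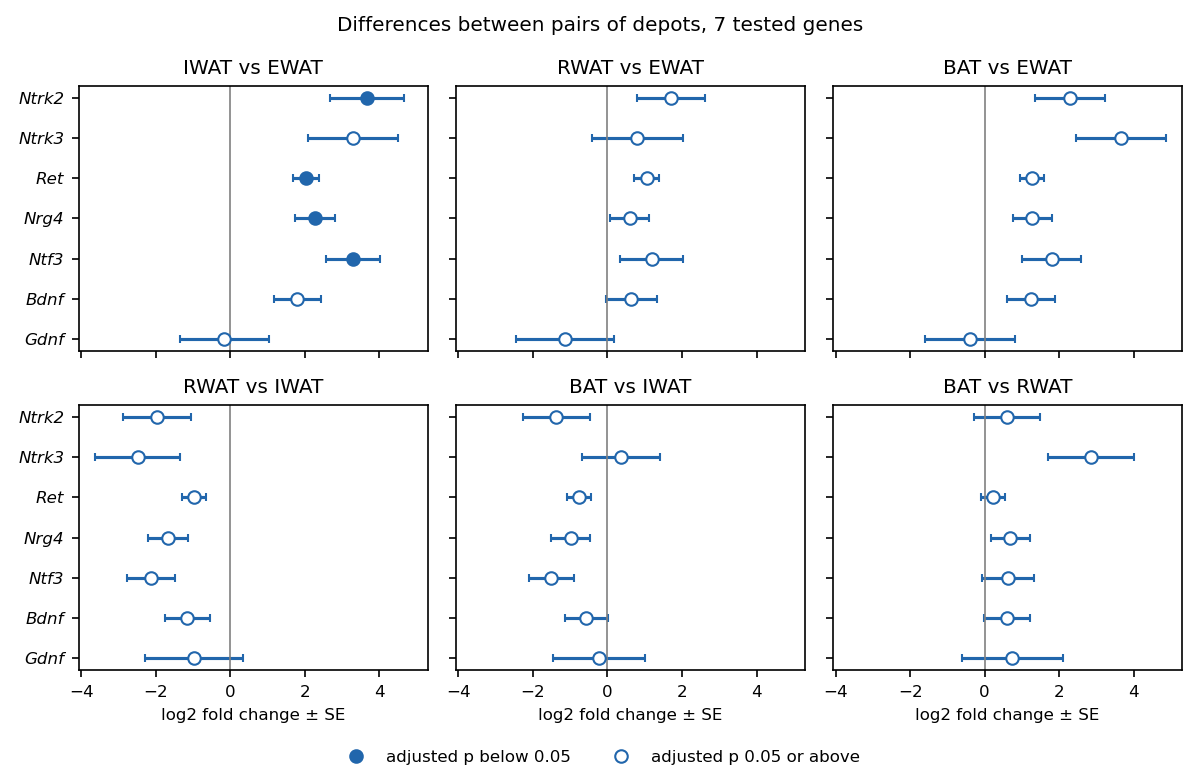
Each panel plots the log2 fold change (point) ± SE (bar) of the 7 tested genes between 2 depots, with filled points for an edgeR adjusted p below 0.05. The 4 filled points are Ntrk2, Ret, Nrg4 and Ntf3 in IWAT against EWAT. All 7 points of RWAT against IWAT lie below 0, where edgeR called 0 genes and the median over all genes tested was -0.014. The share of all genes below 0 was not counted.

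Ntrk2 (chromosome 13, 58806569 to 59133970, plus strand) had the widest range of the receptors. It was at 250.0, 237 and 200.1 CPM in the 3 IWAT libraries and at 3.29, 38.5 and 12.4 CPM in the 3 EWAT libraries. The IWAT libraries lay close together and all above every other library, and the EWAT libraries differed 11.7-fold among themselves. The share of all genes tested with IWAT above every other library was not counted, and 17.3% were higher in IWAT than in EWAT without overlap. Ntrk2 was 12.7-fold higher in IWAT than in EWAT (log2 fold change 3.67 ± 0.98 (SE), edgeR adjusted p = 0.0392). BAT 1 to 3 stood at 86.8, 11.7 and 167 CPM and RWAT 1 to 3 at 95, 20.8 and 59.5 CPM. BAT 3 exceeded BAT 2 by 14.3-fold, and BAT and RWAT overlapped with each other and with EWAT. By depot mean the order was IWAT (229 ± 25.9 CPM, SD, n = 3), BAT (88.3 ± 77.4), RWAT (58.4 ± 37.1) and EWAT (18.1 ± 18.3). No pair of neighbours in that order passed the test (edgeR adjusted p = 0.514 for IWAT and BAT, 0.999 for BAT and RWAT, and 0.997 for RWAT and EWAT).

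The call for Ntrk2 was the least stable of the 4. It was made in 14 of 23 alternatives and lost with the replicate number as a block (edgeR adjusted p = 0.0774) and without BAT 1, EWAT 1, EWAT 3, IWAT 1, IWAT 2, IWAT 3, RWAT 1 or RWAT 3 (adjusted p up to 0.129). The log2 fold change stayed between 3.17 and 4.86 in all 23. Annotated antisense genes overlap Ntrk2, and whether the counting used strand was not given in the sources used here.

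Ret (chromosome 6, 118151745 to 118197718, minus strand) ordered the white depots without overlap. It was at 24.1, 17.7 and 29.5 CPM in IWAT 1 to 3 and at 6.52, 5.99 and 4.88 CPM in EWAT 1 to 3. RWAT 1 to 3 stood between them at 16.1, 9.50 and 10.5 CPM, overlapping with neither. IWAT was 4.09-fold above EWAT (log2 fold change 2.03 ± 0.34, edgeR adjusted p = 0.0114), and this call was kept in 23 of 23 alternatives (adjusted p 4.95e-06 to 0.0495). Ret was 2.07-fold higher in RWAT than in EWAT and 1.97-fold lower in RWAT than in IWAT, and neither passed the test (edgeR adjusted p = 0.666 and 0.156). Genes without overlap between 2 depots were common: 3.97% of genes tested were higher and without overlap in RWAT against EWAT, and 15.2% were lower and without overlap in RWAT against IWAT.

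In brown fat Ret was highest in BAT 2, with 9.75, 21.1 and 11.2 CPM in BAT 1 to 3. BAT 2 had the lowest adipocyte marker sum of the 3 and the highest sum of fibroblast and progenitor markers of all 12 libraries (27430 CPM), and the part of either in its Ret value was not tested. All 3 exceeded every EWAT library, by 2.41-fold in the fit, but the test over all genes did not call it (log2 fold change 1.27 ± 0.33, edgeR adjusted p = 0.174, and 5.49% of genes were higher without overlap). DESeq2 did call it, with an adjusted p of 0.0314. Over the 4 depots together Ret had the smallest adjusted p of the 7 genes (edgeR adjusted p = 0.0525), and it passed without BAT 2, without BAT 3, without both BAT 2 and EWAT 1, with no filter on low counts and by DESeq2.

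Ntrk3 (chromosome 7, 78175959 to 78738012, minus strand), the receptor gene for neurotrophin-3, was highest in BAT 1 and in 2 of the 3 IWAT libraries. BAT 1 to 3 stood at 30.3, 0.608 and 2.74 CPM, so the library with Ucp1 held 569 expected counts and BAT 2 held 11.9. In IWAT the values were 10.7, 13.2 and 2.24 CPM and in EWAT 0.762, 1.43 and 0.488 CPM. These 2 groups did not overlap, as for 17.3% of genes tested that were higher in IWAT without overlap, and the 9.79-fold difference was not called (log2 fold change 3.29 ± 1.20, edgeR adjusted p = 0.0920). It was called in 4 of 23 alternatives: by DESeq2, with only the depots compared, without BAT 1 and without BAT 2. RWAT 1 to 3 stood at 1.59, 0.591 and 2.58 CPM. The log2 fold change of BAT against white fat was 2.29 ± 0.81 (edgeR adjusted p = 0.651), and without BAT 1 it was -0.45. Ntrk3 followed the 13 thermogenic markers (led by Ucp1) over the 12 libraries, with r = 0.92. BAT 1 also held the highest sum of lymphocyte markers (80.8 CPM), and the part of these cells in its Ntrk3 value was not tested. The mean length of the Ntrk3 transcripts ran from 1137 bases in BAT 2 to 3391 bases in RWAT 1, where the expected counts were 11.9 and 33.3, and whether the mixture of Ntrk3 transcripts differed between libraries was not tested.

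Nrg4 (chromosome 9, 55220222 to 55326844, minus strand) was the only abundant ligand. It was at 70.5, 59.3 and 39.1 CPM in IWAT 1 to 3 and at 12, 14.5 and 8.45 CPM in EWAT 1 to 3. Every IWAT library was above every EWAT and every RWAT library, the latter at 22.8, 8.77 and 21.3 CPM. Of all genes tested, 17.3% were higher in IWAT than in EWAT without overlap, and 15.2% were lower in RWAT than in IWAT without overlap. Nrg4 was 4.83-fold higher in IWAT than in EWAT (log2 fold change 2.27 ± 0.54, edgeR adjusted p = 0.0287). The call was kept in 19 of 23 alternatives and lost without EWAT 1, EWAT 3, IWAT 1 or IWAT 2 (adjusted p up to 0.104).

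Nrg4 in brown fat ran from the lowest value of all 12 libraries to above every EWAT and RWAT library. The 3 BAT libraries were at 36.1, 7.96 and 41.0 CPM, with BAT 2 the lowest of the 12 and BAT 1 and BAT 3 above all 6 EWAT and RWAT libraries. The means were 28.3 ± 17.8 CPM in BAT (SD, n = 3) and 28.5 ± 22.8 CPM in the white depots (SD, n = 9). The fitted log2 fold change was 0.33 ± 0.42 (edgeR adjusted p = 0.999), and it became 0.77 without BAT 2 and -0.036 without BAT 3. By depot mean the order was IWAT (56.3 ± 15.9 CPM), BAT, RWAT (17.6 ± 7.69 CPM) and EWAT (11.6 ± 3.04 CPM), and no neighbours in it passed the test (edgeR adjusted p = 0.430, 0.999 and 0.997). BAT 1, with Ucp1 at 1489 CPM, held no more Nrg4 than BAT 3, with Ucp1 at 1.70 CPM. The adipocyte markers summed to 10590 CPM in BAT 1 and 26589 CPM in BAT 3. Per 1000 CPM of these markers, Nrg4 was at 3.41, 1.46 and 1.54 CPM in BAT 1 to 3, a ratio that was not tested. Nrg4 overlaps Fbxo22 on the other strand, and without a stated strand setting their reads may not have been told apart. Fbxo22 had 949, 940 and 848 expected counts in IWAT 1 to 3 and 831, 809 and 997 in EWAT 1 to 3. The mean length of the Nrg4 transcripts was 1235, 1451 and 1430 bases in IWAT 1 to 3 and 1707, 1507 and 1514 bases in EWAT 1 to 3. Whether the mixture of Nrg4 transcripts differed was not tested.

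Ntf3 (chromosome 6, 126101412 to 126166910, minus strand), the gene for neurotrophin-3, was detected in few reads. The IWAT libraries held 22, 23 and 31 counts (1.44, 1.03 and 1.82 CPM) and the EWAT libraries 0, 6 and 2 counts (0, 0.343 and 0.0977 CPM). All 3 IWAT values lay above all 9 values of the other depots, where BAT 1 to 3 stood at 0.426, 0.253 and 0.822 CPM and RWAT 1 to 3 at 0.387, 0.273 and 0.303 CPM. How many of all genes tested did so was not counted, and 17.3% were higher in IWAT than in EWAT without overlap. The fitted difference between IWAT and EWAT was 9.85-fold (log2 fold change 3.30 ± 0.72, edgeR adjusted p = 0.0225). With 8 counts over the EWAT libraries together, the size of that fold is loosely set, and over the alternatives the log2 value ran from 1.11, on log2 of TPM with 1 added, to 4.70. The call was kept in 19 of 23 alternatives and lost without EWAT 1, EWAT 3, IWAT 1 or IWAT 2 (adjusted p up to 0.0863).

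Bdnf (chromosome 2, 109674700 to 109727007, plus strand), the ligand gene for TrkB, was low in every depot while Ntrk2 was not. It was at 0.850, 0.491 and 1.77 CPM in IWAT 1 to 3, at 0.428, 0.343 and 0.0977 CPM in EWAT 1 to 3, at 0.426, 0.710 and 0.931 CPM in BAT 1 to 3 and at 0.242, 0.546 and 0.606 CPM in RWAT 1 to 3. IWAT and EWAT did not overlap, by a margin of 0.428 against 0.491 CPM, and 17.3% of genes tested were higher in IWAT without overlap. The difference of 3.48-fold was not called (log2 fold change 1.80 ± 0.63, edgeR adjusted p = 0.0825) and was called in 0 of 23 alternatives. Annotated antisense genes overlap Bdnf and Ntrk3 as well.

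The 3 RET ligands showed no ordering by depot. Gdnf (chromosome 15, 7810846 to 7837575, plus strand) had 32 counts in EWAT 1, 30 in IWAT 2, 17 in BAT 2 and 11 in RWAT 2, and at most 6 in each of the other 8 libraries. One library in each depot was therefore high and the others were low. The log2 fold change between IWAT and EWAT was -0.16 ± 1.19 (edgeR adjusted p = 0.947) and became 2.27 without EWAT 1 and -3.13 without IWAT 2. Nrtn (chromosome 17, 56751325 to 56757530, minus strand) had 19 counts in BAT 1 and 0 to 4 in the other 11 libraries. Artn (chromosome 4, 117926162 to 117929763, minus strand) had 0 to 7 counts in all 12, highest in IWAT 2 with 7 and BAT 2 with 6. Neither Nrtn nor Artn passed the filter on low counts. In edgeR with no filter, 0 of 8 comparisons called either gene (lowest adjusted p 0.444 for Nrtn and 0.660 for Artn), and an unadjusted p below 0.05 was found in 2 for Nrtn, both of BAT, and in 0 for Artn. DESeq2 called neither where it gave an adjusted p.

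Among themselves the tested genes, called or not, moved together over libraries to different degrees. Over the 12 libraries, where both genes of a pair come from the same library and so from the same depot and depth, Pearson's r of log2 CPM was 0.93 between Ntf3 and Ntrk2, 0.89 between Nrg4 and Ntrk2 and 0.85 between Nrg4 and Ntrk3. It was 0.81 between Ntf3 and Nrg4, 0.76 between Ntf3 and Ret and 0.61 between Ntrk2 and Ret. Lower values were 0.56 between Nrg4 and Ret and -0.42 between Gdnf and Ntrk2. These values describe the libraries and include the differences between depots. The ligand and receptor pairs were 0.46 for Bdnf and Ntrk2, 0.59 for Ntf3 and Ntrk3 and -0.11 for Gdnf and Ret.

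Cell type markers moved with these genes, and their part in the differences was not tested. The summed adipocyte markers were 24281 to 41819 CPM in IWAT and 1713 to 13285 CPM in EWAT, without overlap. Over the 12 libraries Pearson's r with this sum (log2) was 0.94 for Ntrk2, 0.91 for Ntf3, 0.80 for Nrg4, 0.55 for Ret and -0.57 for Gdnf. The 16 Schwann cell markers summed to 515 to 629 CPM in IWAT and 144 to 281 CPM in EWAT. Much of that sum came from Scn7a and Pmp22, with means of 147 and 136 CPM over the 12 libraries. The r with this sum was 0.91 for Ntrk2, 0.89 for Ntf3, 0.81 for Nrg4 and 0.61 for Ret. The defining Schwann gene Sox10 was at 0.785, 2.32 and 1.18 CPM in IWAT 1 to 3 and at 0, 0.114 and 0.0977 CPM in EWAT 1 to 3. The 9 macrophage markers went the other way, at 2728 to 4018 CPM in IWAT and 9122 to 11545 CPM in EWAT, with r of -0.81 for Ret. The 12 fibroblast and progenitor markers, led by Col3a1 and Col1a1, were at 16118 to 21360 CPM in IWAT and 8545 to 14048 CPM in EWAT, without overlap, with r of 0.78 for Ret and 0.70 for Bdnf. The thermogenic markers were at 150.05 to 325 CPM in IWAT and 10.9 to 83.6 CPM in EWAT, with r of 0.77 for Nrg4 and 0.77 for Ntrk2. The 12 mural and smooth muscle markers overlapped, at 512 to 688 CPM in IWAT and 684 to 1637 CPM in EWAT, with r of -0.82 for Ntrk2. The 13 mesothelial markers were at 12.6 to 19.7 CPM in IWAT and 72.6 to 198 CPM in EWAT.

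**Figure D3:**
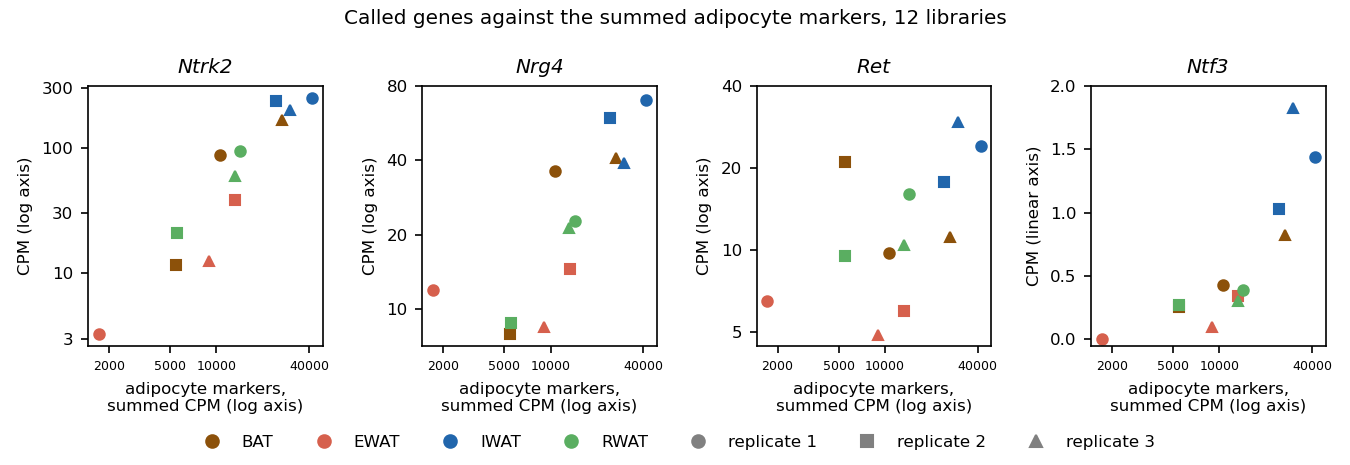
CPM of the 4 genes called between IWAT and EWAT (vertical axes, log for Ntrk2, Nrg4 and Ret, linear for Ntf3) is plotted against the summed CPM of 14 adipocyte markers (log axis) for the 12 libraries, coloured by depot. Ntrk2 and Ntf3 rise along the axis, with EWAT 1 lowest on both axes, while Ret is high in BAT 2 at 5455 CPM of adipocyte markers.

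Divided by the adipocyte markers, Ntrk2 and Ntf3 did not overlap between IWAT and EWAT, while for Nrg4 and Ret EWAT 1 alone lay above IWAT. Ntrk2 was at 5.98, 9.78 and 6.68 CPM per 1000 CPM of adipocyte markers in IWAT 1 to 3 and at 1.92, 2.90 and 1.38 in EWAT 1 to 3, without overlap. Ntf3 was at 0.0344, 0.0423 and 0.0609 against 0, 0.0258 and 0.0108, also without overlap, where EWAT 2 held 6 counts. In these ratios IWAT no longer lay above every library of the other depots. Ntrk2 was at 8.19 in BAT 1 and 6.62 in RWAT 1, and Ntf3 at 0.0465 in BAT 2 and 0.0496 in RWAT 2. Nrg4 stood at 1.69, 2.44 and 1.31 in IWAT and at 7.0, 1.09 and 0.938 in EWAT, and Ret at 0.575, 0.729 and 0.984 against 3.81, 0.451 and 0.542, so both overlapped with EWAT 1 highest. EWAT 1 had the lowest adipocyte marker sum of the 12 libraries (1713 CPM). The ratios were not tested and were chosen after the values were seen. How many of all genes tested were without overlap in such ratios was not counted.

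The genes whose pattern over the 12 libraries was most like that of each neurotrophic gene were taken by Pearson's r of log2 CPM. Ntrk2 was matched by Ces1d (r = 0.99), a carboxylesterase gene, Acss3 (0.99), an acyl-CoA synthetase gene, and Aldh6a1 (0.98), an aldehyde dehydrogenase gene. For Nrg4 the closest were Fgf11 (0.98), Ralgapa2 (0.97) and the complement gene C3 (0.96), and for Ntf3 Zfp423, a preadipocyte transcription factor (0.97), Ctnnal1 (0.97) and Lims2 (0.96). Ret had no match above 0.93 (Cebpd, an adipogenic transcription factor, followed by Ust at 0.90 and St3gal2 at 0.89). Ntrk3 was matched by Fam210a (0.97), Gpx3 (0.96) and the mitochondrial gene mt-Cytb (0.95). The closest were Syvn1 (0.91), Adamts12 (0.91) and Slc9a3r2 (0.88) for Bdnf and Sema4c (0.90), Pcdhgb7 (0.87) and Ica1 (0.87) for Gdnf.

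Partners of the 9 genes were described from 5 lists, whose counts are to be read against the 11% of all genes tested that were called between IWAT and EWAT. In the list of other neurotrophin ligands, receptors and processing enzymes, 9 of 12 genes were tested and 2 were called between IWAT and EWAT, both higher in IWAT, with a median log2 fold change of 0.34 over the 9 against 0.02 over all genes tested. Both are proprotein convertases, the class of enzymes that cut neurotrophin precursors. Pcsk6 was at 177, 146 and 55.4 CPM in IWAT and at 11.4, 16 and 5.62 CPM in EWAT (log2 fold change 3.52 ± 0.58, edgeR adjusted p = 0.0113). It was also called over the 4 depots together (edgeR adjusted p = 0.0422). Pcsk5 was at 22.4, 45.4 and 37.9 CPM against 3.48, 13.1 and 3.57 CPM (log2 fold change 2.40 ± 0.52, edgeR adjusted p = 0.0233). The shared neurotrophin receptor gene Ngfr was at 0.915, 10.5 and 1.47 CPM in IWAT and at 0.524, 0.856 and 0.684 CPM in EWAT, not called (edgeR adjusted p = 0.0578), with IWAT 2 far above the other libraries.

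Of 12 adaptor genes of Trk receptors, 11 were tested and 1 was called, where 11% of all genes were, with a median log2 fold change of 0.23 against 0.02 over all genes tested. Plcg1, the phospholipase recruited to activated Trk receptors, was at 96.6, 100.7 and 115 CPM in IWAT and at 59.9, 60.0 and 46.7 CPM in EWAT (log2 fold change 0.91 ± 0.18, edgeR adjusted p = 0.0172). The adaptor genes Grb2 and Shc2 were not called (log2 fold changes -0.57 ± 0.23 and 0.74 ± 0.27, edgeR adjusted p = 0.126 and 0.0890).

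Of 13 genes for GDNF family co-receptors and RET partners, 9 were tested and 3 were called between IWAT and EWAT (11% over all genes), 1 higher and 2 lower, with a median log2 fold change of 0.57. Gfra2, the co-receptor preferred by neurturin, was at 22.6, 23.8 and 22.2 CPM in IWAT and at 3.76, 5.08 and 1.56 CPM in EWAT (log2 fold change 2.72 ± 0.37, edgeR adjusted p = 0.00832). Its 3 IWAT values agreed closely and lay above all other libraries, the next being RWAT 3 at 15.2 CPM. How many of all genes tested lay so was not counted. The call for Gfra2 was kept in 23 of 23 alternatives. Gfra2 was also called over the 4 depots (edgeR adjusted p = 0.0344). Ncam1, a GDNF receptor that acts without RET, fell from 89.7, 45.7 and 27.1 CPM in EWAT to 2.75, 4.33 and 4.18 CPM in IWAT (log2 fold change -3.85 ± 0.70, edgeR adjusted p = 0.0149). Dok5, an adaptor of RET, was also lower in IWAT (log2 fold change -2.93 ± 0.54, edgeR adjusted p = 0.0154). Mesothelial markers were high in the same EWAT libraries, at 72.6, 88.0 and 198 CPM in EWAT 1 to 3, where Dok5 was at 2.38, 1.48 and 1.22 CPM. In RWAT 1 to 3 these markers were at 10.3, 57.4 and 107 CPM. Ncam1 was at 9.13, 26.2 and 7.50 CPM there and Dok5 at 0.435, 0.546 and 0.303 CPM. The part of mesothelial cells in these 2 differences between IWAT and EWAT was not tested.

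The neuregulin and ERBB list had 13 of 14 genes tested and 5 called (11% over all genes), 2 higher and 3 lower in IWAT, with a median log2 fold change of 0.24. Erbb4, the receptor gene for neuregulin 4, had 0 counts in all 3 EWAT libraries and was at 4.05, 6.29 and 0.294 CPM in IWAT 1 to 3. No fold is given because EWAT had 0 counts, and IWAT 3 held 5 counts against 62 in IWAT 1 and 141 in IWAT 2. Erbb4 was called higher in IWAT (edgeR adjusted p = 0.0448), a call made in 10 of 22 alternatives. In BAT 1 to 3 it was at 3.84, 0.0507 and 0.493 CPM. Egfr was at 217, 183 and 159 CPM in IWAT and 109.9, 102.0 and 80.5 CPM in EWAT (log2 fold change 0.94 ± 0.19, edgeR adjusted p = 0.0189). The EGF family ligand gene Areg had 3 counts over the IWAT libraries together and 92 over those of EWAT, a ratio of 28.4 (95% exact counting interval 9.43 to 140, counting error only), and was called lower in IWAT (edgeR adjusted p = 0.0285). The related ligand gene Ereg and the shedding protease gene Adam17 were also lower in IWAT (log2 fold changes -5.20 ± 1.36 and -0.94 ± 0.26, edgeR adjusted p = 0.0353 and 0.0428). Adam17 was called in 8 of 23 alternatives.

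Of 20 other neurotrophic genes, 19 were tested and 4 were called (11% over all genes), 3 higher and 1 lower in IWAT, with a median log2 fold change of 0.66. Lifr, a receptor for leukaemia inhibitory factor and ciliary neurotrophic factor, was at 232, 217 and 203 CPM in IWAT and at 44.0, 93.0 and 60.3 CPM in EWAT (log2 fold change 1.72 ± 0.38, edgeR adjusted p = 0.0234). The growth factor gene Vegfb and the receptor phosphatase gene Ptprz1 were higher (log2 fold changes 2.32 ± 0.67 and 2.62 ± 0.74, edgeR adjusted p = 0.0484 and 0.0424), and the heparin-binding factor gene Mdk was lower (-1.70 ± 0.49, edgeR adjusted p = 0.0472). These 3 calls were made in 11 of 23, 8 of 22 and 7 of 23 alternatives. S100b, a glial calcium-binding protein gene, was at 41.2 CPM in BAT 1 and at most 5.69 CPM in the other libraries.

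**Figure D4:**
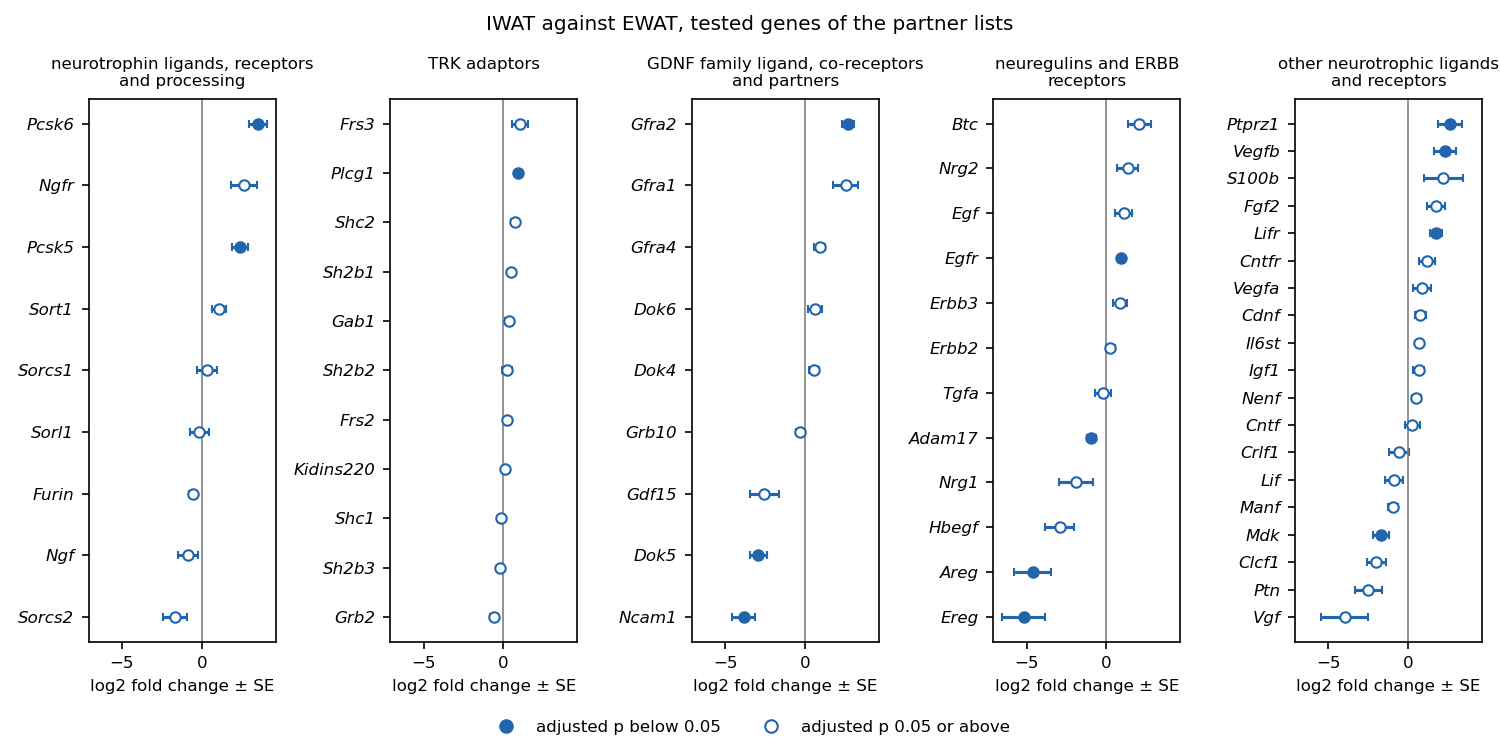
Log2 fold changes ± SE between IWAT and EWAT of the tested genes in the 5 partner lists, with filled points for an edgeR adjusted p below 0.05 and Erbb4 left out because EWAT had 0 counts. Pcsk6 and Gfra2 are the highest points of their lists, and Ncam1 and Ereg the lowest of theirs.

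**Figure D5:**
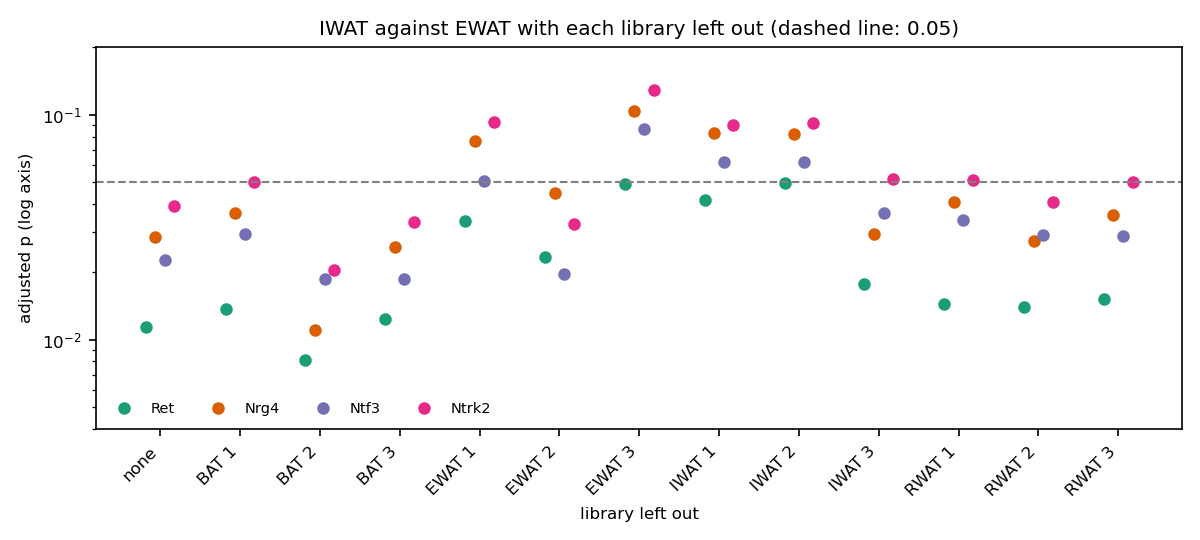
The edgeR adjusted p (log axis) of Ret, Nrg4, Ntf3 and Ntrk2 between IWAT and EWAT is plotted with all libraries (none) and with each of the 12 left out, with a dashed line at 0.05. Ret stays below the line in all 12, Nrg4 and Ntf3 rise above it in 4 and Ntrk2 in 8.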

How the data were processed

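RNA of 12 libraries (total RNA, ribosomal RNA removed, single-end reads of 75 bp) was analysed. Per the submitters' processing notes, Trimmomatic 0.36, RSEM 1.3.0, DESeq2 1.10.1 and GRCm38.p4 were used. The aligner, annotation release and strand setting are not given in the sources used here. Per the file headers, the deposited tables hold each gene's expected count, an estimated read count with no normalization. They also hold the deposited TPM and mean transcript length in bases, another unit of the authors' RSEM output.

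Expected counts were rounded, and filterByExpr (minimum count 10) left 18942 genes. After TMM scaling (factors 0.846 to 1.14), two-sided quasi-likelihood F tests were made in edgeR 4.0.16 from 1 model with 4 depot coefficients. Adjusted p is Benjamini-Hochberg over all genes tested, with a threshold of 0.05, in 8 comparisons: the 4 depots together, BAT against the 3 white depots averaged, and 6 pairs. The biological coefficient of variation was 0.385. The test was also run on simulated counts with the same spread, 0.385, for every gene. Genes with a wider spread among libraries, such as Ntrk2, were not covered by that run. R 4.3.3, limma 3.58.1 and DESeq2 1.42.0 were used. Positions are those of GENCODE M21.

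The 9 genes, the lists and the tests were chosen with earlier results of these data known. Named partners are list genes called in any comparison and up to 3 per list with the smallest p over the 4 depots, and likeness used log2 CPM with a prior count of 2. Marker lists were summed as CPM instead of TPM, since 7SL RNA moves TPM. Same-numbered libraries deviated together in all 3 pairs (r over 0.1) for BAT and RWAT alone, not in the other 5 pairs of depots, so no block was used. Alternatives were other scaling, no filter, DESeq2, limma-voom, limma on TPM, the block, only the depots compared, each library left out and, chosen after seeing the data, 3 more.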

Additional observations from a re-analysis of the deposited data

How the results depend on the processing

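Members here are the 9 genes, and counts are those at an adjusted p below 0.05. Ret was called between IWAT and EWAT in all 23 alternatives, Nrg4 and Ntf3 in 19 and Ntrk2 in 14, always higher in IWAT, and BAT against white, IWAT or RWAT gave 0 members in every alternative. Gdnf, Nrtn and Artn rest on few counts.

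Over the 4 depots the 215 genes and 0 members became 364 and 1 (Ret) with no filter, 2388 and 5 by DESeq2, 35 by limma-voom, 109 and 1 (Ntf3) with 0.1 added to TPM, 1 member (Ntf3) with 1 added, 40 without the small-count adjustment of the quasi-dispersion and 1 member (Ret) without both BAT 2 and EWAT 1. For BAT against white the 10 genes became 21 with no filter, 180 by DESeq2, 4 by limma-voom, 5 with 0.1 added and 208 without both libraries. For BAT against EWAT the 27 became 63 with no filter, 470 (2 members, Ntrk3 and Ret) by DESeq2, 16 by limma-voom, 17 with 0.1 added, 5 with 1 added, 16 without the adjustment and 5 without both libraries. For BAT against IWAT the 5 became 305 by DESeq2, 0 by limma-voom, 0 with only the depots compared and 59 without both. For BAT against RWAT the 4 became 45 by DESeq2, 0 by limma-voom, 1 with 1 added, 2 with only the depots compared and 17 without both. For IWAT against EWAT the 2082 became 3639 by DESeq2 and 1071 without both. For RWAT against EWAT the 1 became 2 by RLE, with no filter, with 0.1 added and with TMM without 7SL, 7SK and mitochondrial rRNA, 138 by DESeq2, and 0 by limma-voom, with 1 added, with only the depots compared and without both. For RWAT against IWAT the 0 became 1109 (1 member, Nrg4) by DESeq2, 2 with only the depots compared and 1 without both. The cause of these moves was not tested.

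With the replicate number as a block, 27 genes were called over the 4 depots, 13 for BAT against EWAT and 1064 for IWAT against EWAT, where Ntrk2 was lost (adjusted p 0.0774) and no other member's call changed. Leaving out 1 library gave 15 to 817 genes and 0 to 2 members over the 4 depots, 1 to 251 genes for BAT against white, 3 to 247 against EWAT, 3 to 82 against IWAT and 0 to 28 against RWAT. It gave 55 to 2769 genes and 1 to 5 members for IWAT against EWAT, with 575 without EWAT 1, 263 without EWAT 3, 304 without IWAT 1, 55 without IWAT 2 and 1353 without RWAT 1, and 0 to 79 and 0 to 61 genes for RWAT against EWAT and IWAT. Members in the other comparisons stayed at 0. Log2 signs turned for Nrg4 in BAT against white without BAT 3 (range -0.036 to 0.77), for Ntrk3 there without BAT 1 (-0.45 to 2.86), and for Gdnf in IWAT against EWAT without EWAT 1, IWAT 1 (0.30) or IWAT 3 (0.32) (-3.13 to 2.27) and without both BAT 2 and EWAT 1 (2.27).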
